A study of Homo sapiens with 6 samples.

Results

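CaSki, an established human cervical carcinoma line that carries HPV16, was grown for 24 h with 10 nM calcitriol, the hormonally active form of vitamin D, or with 0.1% ethanol as vehicle. Total RNA was hybridized to 6 Clariom D arrays, 3 pools per treatment, and the deposited gene-level log2 signals were compared. Every pool mixed RNA from all of the independent experiments, so the p-values reflect differences among pools of the same experiments, which may be technical. The genes described here make hyaluronan, break it down, bind it at the cell surface or supply one of its building blocks. The list named 8 genes, *HAS1*, *HAS2*, *HAS3*, *HYAL1*, *HYAL2*, *HYAL3*, *CD44* and *UGDH*, of 17622 protein-coding genes with a feature of their own. A feature was taken where the platform annotation gave it exactly 1 symbol on the list, the brightest where a gene had several, which left 6 of the 8 genes. *HAS1* and *HYAL1* had no such feature and were not analysed here.

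Hyaluronan is a long, unbranched and unsulfated polysaccharide of the extracellular matrix. Unlike other glycosaminoglycans it is made at the plasma membrane, where hyaluronan synthases join glucuronic acid and N-acetylglucosamine from their UDP-sugars and push the growing chain out of the cell. Hyaluronidases cut the chains, which are then degraded in lysosomes, and CD44 is the main receptor that holds hyaluronan at the surface of epithelial cells. In stratified squamous epithelium both hyaluronan and CD44 are found around the proliferating cells.

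Among the 6 measured genes, the synthase gene *HAS2* was lower in calcitriol-treated cells by 2.16-fold, and the dim synthase gene *HAS3* was lower on all calcitriol arrays by less than the fold of 1.5. The receptor gene *CD44* and the precursor enzyme gene *UGDH* were bright and had overlapping groups, as had the dim hyaluronidase genes *HYAL2* and *HYAL3*. A gene was called where its fold reached 1.5 with an unadjusted p under 0.05. By this rule 1 of the 6 was lower, where 2.87% of protein-coding genes and 1.56% of all 138745 features were, and 0 were higher, where 0.352% of protein-coding genes and 1.43% of all features were. The unadjusted p from limma was under 0.05 for 2 of the 6, against 6.43% of coding genes. After adjustment over all features 0 of the 6 passed, with adjusted p-values from limma of 0.915 to 0.997, where 1 feature (0.000721%) did, that of *CYP24A1*. Log2 fold changes, calcitriol minus vehicle, were negative for 4 of the 6 with a median of -0.20, beside a median of -0.093 over coding genes, of which 66.9% were negative.

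The response to treatment was seen in *CYP24A1*, which encodes the calcitriol 24-hydroxylase, whose signal was 4.31 to 5.77 on the vehicle arrays and 11.68 to 13.27 on the calcitriol arrays. All 8 exogenous control RNAs, added at the bench, were lower on the calcitriol arrays, by a mean log2 fold change of -0.34 (range -0.63 to -0.13), and their part in the results was not tested. Of the markers of a squamous carcinoma line, 8 of 8 measured were above the level of the negative controls, against 2 of 7 for fibroblasts, 0 of 4 for endothelial cells and 0 of 4 for leukocytes. That level is the 95th percentile of the mean signals of 612 negative control features over the 6 arrays, a log2 signal of 6.32. On single arrays the 95th percentile of these controls was higher, from 6.67 to 6.93. In bulk RNA, a lower signal from fewer expressing cells and one from less RNA per cell cannot be told apart.

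**Figure D1:**
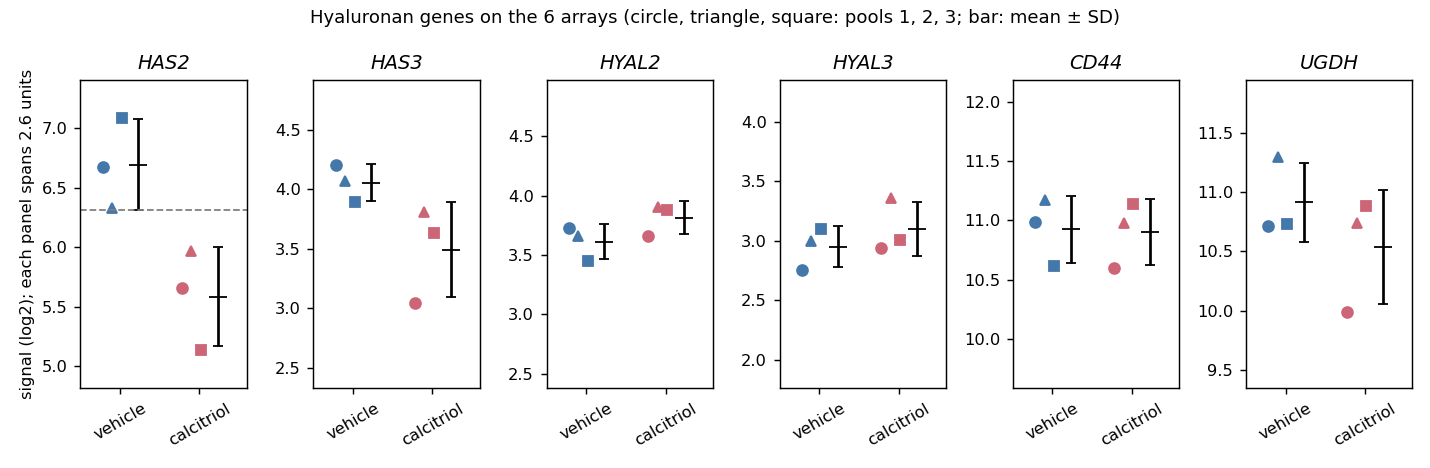
Log2 signals of the 6 hyaluronan genes on each array, 1 panel per gene on an axis of its own; circles, triangles and squares are pools 1, 2 and 3, black bars give the mean ± SD of 3 pools, and the dashed line is the negative control level of 6.32. The *HAS2* signals lie above that line on the 3 vehicle arrays and below it on the 3 calcitriol arrays.

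*HAS2*, the synthase gene that many cell types switch on in growth factor and wound responses, had log2 signals of 6.68, 6.33 and 7.09 in vehicle pools 1 to 3 and of 5.65, 5.97 and 5.13 in calcitriol pools 1 to 3. Every calcitriol array lay below every vehicle array, as in 11.2% of coding genes and 5.55% of all features. The means were 6.70 ± 0.38 and 5.59 ± 0.42 (SD, n = 3 pools each), a log2 fold change of -1.11 (standard error 0.27, 95% interval -1.74 to -0.49). The unadjusted p from limma was 0.00316 and the adjusted p over all features was 0.915, while the exact permutation test gave 0.1, the smallest p that 3 pools against 3 allow. Of the coding genes, 0.108% had a lower log2 fold change than *HAS2*, and 0.288% of all features had a smaller p.
The signals of *HAS2* straddled the negative control level, so its fold is not exact. On the vehicle arrays *HAS2* was brighter than 91.0% to 95.8% of the negative controls, and on the calcitriol arrays brighter than 71.9% to 86.1% of them. Only in vehicle pool 3 was it above the 95th percentile of the controls on the same array (7.09 against 6.92). Leaving out each array in turn gave log2 fold changes of -1.30 to -0.89, with unadjusted p-values of 0.00218 to 0.0136. Centring each array on the exogenous controls gave a log2 fold change of -0.77 (standard error 0.26), still past both thresholds.
The antisense gene *HAS2-AS1*, whose transcript overlaps *HAS2* on the opposite strand, had 3.59, 3.58 and 4.16 in vehicle and 4.10, 3.54 and 3.94 in calcitriol. These groups overlapped, and its log2 fold change was 0.083 (standard error 0.23). All its signals were below the negative control level, and how far labelling kept the strands apart is not given in the sources used here.

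*HAS3*, a synthase gene commonly expressed in keratinocytes, had log2 signals of 4.20, 4.07 and 3.90 in vehicle pools 1 to 3 and of 3.04, 3.81 and 3.63 in calcitriol pools 1 to 3. The groups did not overlap, but the highest calcitriol signal and the lowest vehicle signal lay close together, and calcitriol pool 1 was the lowest array by a wide margin. The means were 4.06 ± 0.15 and 3.49 ± 0.40 (SD, n = 3 pools each), with a log2 fold change of -0.56 (standard error 0.23, 95% interval -1.09 to -0.036). The unadjusted p from limma was 0.0389, the adjusted p was 0.915 and the exact permutation p was 0.1.
All 6 signals of *HAS3* were below the negative control level, so its log2 fold change is uncertain. On the vehicle arrays 33.2% to 48.0% of the negative controls were dimmer than it, and on the calcitriol arrays 9.80% to 33.5% were. Without calcitriol pool 1 the log2 fold change was -0.34 (standard error 0.20), and centring on the exogenous controls gave -0.22 (standard error 0.23), neither with an unadjusted p under 0.05. The p was also above that threshold without vehicle pool 1 or vehicle pool 2. So it was after centring on coding genes (-0.46, standard error 0.22), with ordinary variances and with the pool number as a block.

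**Figure D2:**
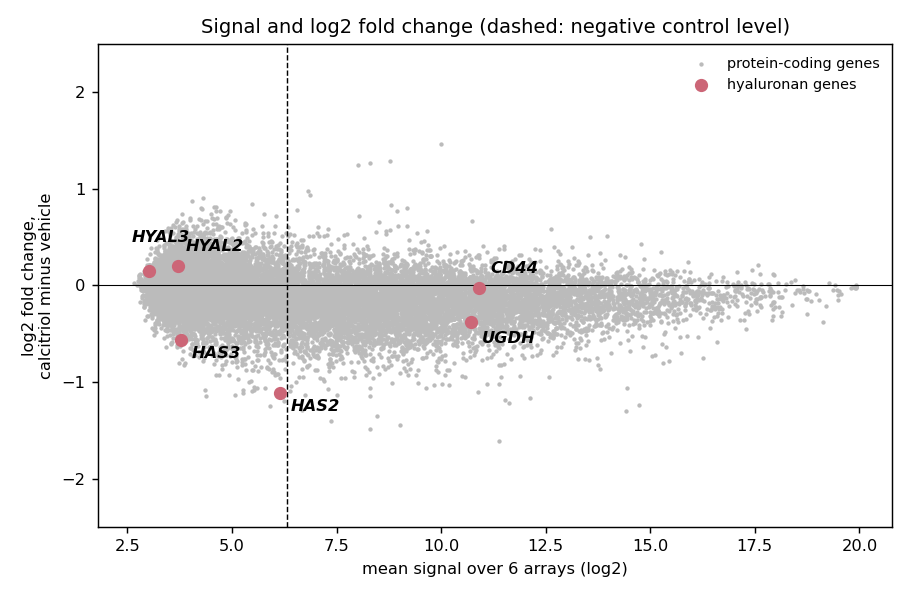
Log2 fold change (calcitriol minus vehicle) against mean log2 signal over 6 arrays for the protein-coding genes (grey points) and the 6 hyaluronan genes (red points); the dashed line is the negative control level of 6.32, and *CYP24A1* lies outside the plotted range. *HAS2* and *HAS3* lie at the lower edge of the cloud at dim signals, *CD44* near 0 and *UGDH* inside the cloud at bright signals.

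*UGDH* encodes UDP-glucose dehydrogenase, which makes the UDP-glucuronic acid used for hyaluronan and for other glycosaminoglycans. Its log2 signals were 10.71, 11.30 and 10.73 in vehicle pools 1 to 3 and 9.99, 10.74 and 10.88 in calcitriol pools 1 to 3. Calcitriol pool 1 was the lowest of the 6 arrays and vehicle pool 2 the highest, and the other 4 arrays lay within the same narrow range. The log2 fold change was -0.38 (standard error 0.28, 95% interval -1.01 to 0.26) with an adjusted p of 0.928 from limma, which is not larger than the spread between pools. It was -0.10 (standard error 0.24) without calcitriol pool 1. Its antisense neighbour *UGDH-AS1*, below the negative control level, differed by -0.050 (log2, standard error 0.19).

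*UGDH* belongs to a group of enzymes that supply the UDP-sugars, of which 9 of 11 listed genes were measured, all 9 above the negative control level. By the fold and p used above, 0 of the 9 were lower and 0 were higher in the limma fit, 1 had an unadjusted p under 0.05 (6.43% of coding genes), and the median log2 fold change was -0.35. Coding genes above the negative control level had a median of -0.16.
The gene with that p was *UAP1*, whose product makes UDP-N-acetylglucosamine, the other building block of hyaluronan. It had 11.76, 11.95 and 11.80 in vehicle and 11.42, 11.23 and 11.37 in calcitriol, so that all calcitriol arrays were lower, by a difference of -0.49 on the log2 scale (standard error 0.17) at an adjusted p of 0.915 from limma. The groups were also apart for *GFPT1*, the gate enzyme of the hexosamine pathway (-0.35, standard error 0.18). The same held for *PGM1*, which interconverts glucose phosphates (-0.36, standard error 0.20). Thus 3 of the 9 were apart in the direction in which 11.2% of coding genes and 5.55% of all features were. That share was not counted among coding genes above the negative control level, where all 9 lay. *UGP2*, which makes UDP-glucose, the substrate of UGDH, had -0.43 (standard error 0.34), with calcitriol pool 1 at 8.43 and the other 5 arrays between 9.42 and 9.83. The hexokinase genes *HK1* (0.23, standard error 0.25) and *HK2* (0.10, standard error 0.31) had positive values within their errors.

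**Figure D3:**
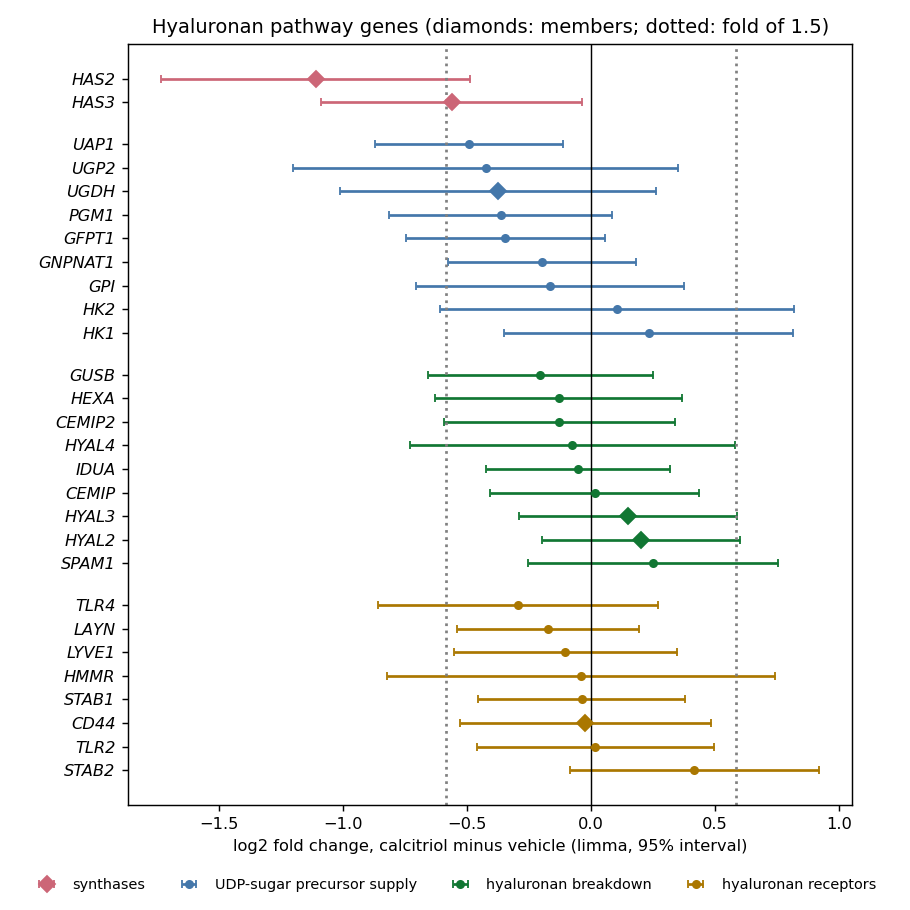
Log2 fold changes (calcitriol minus vehicle, limma) with unadjusted 95% intervals for the synthases and for the measured genes of UDP-sugar supply, hyaluronan breakdown and hyaluronan receptors; diamonds are the genes on the list, and dotted lines mark a fold of 1.5. Only the intervals of *HAS2*, *HAS3* and *UAP1* leave out 0 among those drawn.

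*HYAL2*, the gene of a membrane-anchored hyaluronidase that cuts long chains at the cell surface, had 3.73, 3.66 and 3.45 in vehicle and 3.66, 3.91 and 3.88 in calcitriol. Calcitriol pool 1 lay inside the vehicle range, and the log2 fold change was 0.20 (standard error 0.18, 95% interval -0.20 to 0.60). *HYAL3*, a neighbour of *HYAL2* and *HYAL1* on chromosome 3 that encodes a related protein, had 2.76, 3.00 and 3.10 in vehicle and 2.94, 3.36 and 3.01 in calcitriol, with a log2 fold change of 0.15 (standard error 0.19, 95% interval -0.29 to 0.59). Both were below the negative control level on all 6 arrays, and the adjusted p-values from limma were 0.937 and 0.963. Centring on the exogenous controls moved both values up, to 0.54 (standard error 0.20) for *HYAL2* and 0.49 (standard error 0.21) for *HYAL3*, each with an unadjusted p under 0.05 and a fold under 1.5, in a setting where the median of all features was 0.34.
Of 11 listed genes of hyaluronan breakdown, 9 were measured and 3 were above the negative control level. At the same fold and unadjusted p, 0 were lower and 0 higher in the limma fit, 0 had an unadjusted p under 0.05, and the median log2 fold change was -0.052. The 3 were *CEMIP2* (-0.13, standard error 0.20), which encodes a cell-surface protein that takes part in hyaluronan breakdown, and the lysosomal enzyme genes *HEXA* (-0.13, standard error 0.22) and *GUSB* (-0.20, standard error 0.20), whose products remove single sugars from the ends of the fragments. *CEMIP*, needed for hyaluronan breakdown in skin fibroblasts, was just below that level on average, with 5.95 ± 0.10 in vehicle and 5.96 ± 0.23 in calcitriol (SD, n = 3 pools each). The sperm hyaluronidase gene *SPAM1* was dim, with a log2 fold change of 0.25 (standard error 0.22).

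*CD44*, the gene of the hyaluronan receptor, which is spliced into many variants, had 10.99, 11.17 and 10.61 in vehicle pools 1 to 3 and 10.60, 10.97 and 11.14 in calcitriol pools 1 to 3. The ranges of the groups almost coincided. The means were 10.92 ± 0.28 and 10.90 ± 0.28 (SD, n = 3 pools each), and the log2 fold change was -0.023 (standard error 0.22) at an adjusted p of 0.997 from limma. Its 95% interval in this fit, -0.53 to 0.48, rests on the spread among pools of the same experiments. That it leaves out a fold of 1.5 in either direction holds for this fit and was not examined under the other scalings. The sign of the log2 fold change depended on the scaling, so no direction is given. The value was 0.11 after quantile normalization, 0.11 after cyclic loess and 0.082 after centring on coding genes. Centring on the exogenous controls gave 0.32 (standard error 0.24).
A further feature carrying the *CD44* symbol, without a gene identifier, was below the negative control level, with 4.28, 3.80 and 3.21 in vehicle and 3.24, 3.41 and 3.91 in calcitriol and a difference of -0.24 (log2, standard error 0.30). A gene-level signal sums over the splice variants, which were not separated here.
All 8 listed hyaluronan receptors were measured, and *CD44* and *HMMR*, the gene of a hyaluronan-binding protein of the mitotic spindle, were above the negative control level. In the limma fit 0 of the 8 were lower and 0 higher at the fold and p used here, and 0 had an unadjusted p under 0.05. *HMMR* differed by -0.042 (log2, standard error 0.34), and *STAB2*, the scavenger receptor gene of liver and lymph sinus endothelium, had 0.42 (standard error 0.22) at dim signals.

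Of 15 listed genes of CD44 partners, its shedding and its splicing, 12 were measured and 9 were above the negative control level, and in the limma fit 0 were lower and 0 higher, with 0 at an unadjusted p under 0.05. The smallest p was that of *MMP14*, the gene of a membrane protease that can cut CD44, with 11.65, 12.33 and 12.07 in vehicle and 11.79, 11.73 and 11.06 in calcitriol. Its groups overlapped, and its log2 fold change was -0.49 (standard error 0.26). The genes of the linkers between CD44 and the actin cytoskeleton were bright and had log2 fold changes of -0.11 (*EZR*, standard error 0.16), -0.24 (*MSN*, standard error 0.22) and -0.32 (*RDX*, standard error 0.23). *ESRP1*, an epithelial splicing factor of *CD44*, had -0.041 (standard error 0.19), and the sheddase gene *ADAM10* had -0.11 (standard error 0.21). *SRGN*, below the negative control level on average, went the other way at 0.63 (standard error 0.51), with calcitriol pool 3 at 7.04 and the other arrays at 4.82 to 5.22. Log2 fold changes were negative for 10 of the 12, beside 66.9% of coding genes. Their median was -0.12, beside -0.16 for coding genes above the negative control level, where 9 of the 12 lay.
Proteins that bind hyaluronan in the matrix, such as versican and the link proteins, were listed with 16 genes, all measured and 0 of them above the negative control level. In the limma fit 0 were lower and 0 higher, with 0 at an unadjusted p under 0.05, and the median log2 fold change was 0.0047. The smallest p was that of the pentraxin gene *PTX3* (-0.51, standard error 0.24), followed by *ITIH1*, whose product can be bound to hyaluronan chains (0.26, standard error 0.17).

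The genes most like *CD44* over the 6 arrays, among 8240 coding genes above the negative control level, were *GCSH*, *MRPL12* and *SIRT1* (Pearson's r of 0.97, 0.97 and 0.96 across 6 arrays, as a description). Those most like *HAS3* were *TNPO2*, *NOP10* and *MRPL51*, each with an r of 0.99 to 1.00, and those most like *UGDH* were *OSBPL9*, *PLEKHA2* and *MTREX*, each with an r of 0.99. Each r rests on only 6 arrays, and such values were not particular to the genes named. An r above 0.9 was found for 53 genes with *CD44*, 367 with *HAS3* and 269 with *UGDH*. *HAS3* itself was below the negative control level on all arrays, and why these counts differ was not tested.

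The vitamin D receptor binds pairs of a hexamer such as AGGTCA, set 3 bases apart. To show the sequence next to the receptor gene whose groups coincided, the second synthase gene and the precursor enzyme gene, the 250 bases before the start of *CD44* (chr11:35138921-35139170, plus strand), *HAS3* (chr16:69107290-69107539, plus strand) and *UGDH* (chr4:39527440-39527689, minus strand) were taken from RefSeq (GRCh38.p14), with matches to the hexamers AGGTCA or GGGTCA, and likewise AGTTCA or GGTTCA, on either strand in capitals:
CD44: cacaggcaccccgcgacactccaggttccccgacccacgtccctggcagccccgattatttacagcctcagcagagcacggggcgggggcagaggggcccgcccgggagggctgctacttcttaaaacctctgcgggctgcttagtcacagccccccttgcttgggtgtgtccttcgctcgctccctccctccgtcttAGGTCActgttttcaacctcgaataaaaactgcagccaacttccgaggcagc
HAS3: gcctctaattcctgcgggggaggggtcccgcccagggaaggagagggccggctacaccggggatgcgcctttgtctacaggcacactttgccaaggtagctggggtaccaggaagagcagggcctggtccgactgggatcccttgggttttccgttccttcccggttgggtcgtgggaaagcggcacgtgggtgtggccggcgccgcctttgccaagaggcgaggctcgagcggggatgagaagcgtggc
UGDH: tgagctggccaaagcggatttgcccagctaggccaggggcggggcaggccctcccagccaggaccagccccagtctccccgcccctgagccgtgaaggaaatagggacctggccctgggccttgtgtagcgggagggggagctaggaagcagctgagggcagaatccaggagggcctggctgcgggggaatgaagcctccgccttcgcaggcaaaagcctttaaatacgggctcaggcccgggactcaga
*CD44* held 1 match, AGGTCA on the strand of the gene from 52 to 47 bases before its start, while *HAS3* and *UGDH* held 0. A match to any of the 4 hexamers was found in 33.8% of 35116 such windows, and a pair of them set 3 bases apart in 0.0655%, none of them in these 3 windows. GC content was 62.4%, 66.0% and 66.0%. The letters in these windows say nothing of more distant sites or of binding. Of the windows searched but not shown, that of *HYAL2* and 1 of those of *HYAL3* each held 1 match, GGGTCA. Those of *HYAL1* and *HAS1*, which were not measured, held 1 and 2 matches. None of these held a pair, and no window of *HAS2* is shown.

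**Figure D4:**
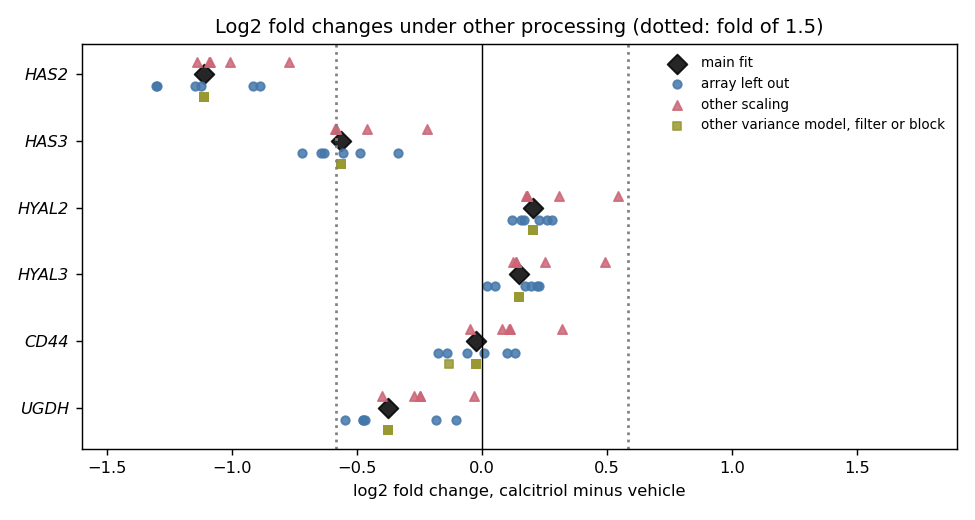
Log2 fold changes (calcitriol minus vehicle) of the 6 hyaluronan genes in the fit described (black diamonds), with each array left out (circles), under other scalings (triangles) and under other variance models, filters or the pool number as a block (squares); dotted lines mark a fold of 1.5. The values of *HAS2* lie between -1.30 and -0.77, and those of *CD44* fall on both sides of 0.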

How the data were processed

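The authors used Transcriptome Analysis Console to correct the background and normalize the arrays, with an algorithm and annotation build not given in the sources used here. Its deposited output, 1 log2 signal per feature and array for 138745 features on 6 arrays, was analysed without a filter. Features were named through the platform annotation, with symbols updated by Entrez identifier (25516), symbol (9899) or synonym (623), and the brightest feature with exactly 1 symbol stood for a gene. The treatments were compared by limma 3.58.1 in R 4.3.3 with moderated variances, two-sided p-values being adjusted by Benjamini-Hochberg over all features. Exact permutation tests are two-sided. Intervals are 95% intervals without adjustment, and the number of arrays limits the precision.

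The genes and pathway lists were chosen with earlier results of these data known. Named by rule were the genes on the list, *CYP24A1*, up to 4 genes of each pathway list with the smallest p, any past the fold and p used here, and the 3 genes most correlated with *CD44*, *HAS3* and *UGDH*; other genes, the antisense genes among them, were added after their values were seen. Alternatives were other scalings, variance models, filters, fold thresholds, group averages, a block and leaving out each array. Of these steps the limma fit alone was tested on simulated data, with planted differences larger than that of any gene on the list.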

Additional observations from a re-analysis of the deposited data

How the results depend on the processing

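*HAS2* stayed lower past a fold of 1.5 and an unadjusted p under 0.05 in all 18 alternatives in which it was tested, with log2 fold changes of -1.30 to -0.77 and adjusted p-values of 0.213 to 0.994. Only other scalings and left-out arrays could move its fold in these fits. The variance models, filters and block keep the value of -1.11 by construction. Averaging all features of a gene altered the values of *CD44* alone, so for *HAS2* it repeated the fit described. With only features above the negative control level it was not fitted, since its mean of 6.14 lay below that level, and 0 genes on the list were called lower. *HAS3* passed the fold as well, making 2 genes called lower, with the arrays centred on the median of all features, and with a fold of at least 1.2; dropping 1 array at a time gave 1 to 2 genes called lower, the second being *HAS3* without vehicle replicate 3, calcitriol replicate 2 or calcitriol replicate 3. These calls of *HAS3* rest on signals below the negative control level on all 6 arrays. Over all 138745 features, 2160 were called lower in the fit described and 2590 with median centring. Without those 3 arrays, in the order given, 2721, 3147 and 2795 were. Without vehicle replicate 1, vehicle replicate 2 and calcitriol replicate 1 the counts were 2891, 3140 and 2144. No such count was made for the fold of 1.2. No other gene on the list was called in any alternative run. *CD44* changed sign after quantile normalization (0.11) and cyclic loess (0.11), after centring on coding genes (0.082) or on the exogenous controls (0.32), and ranged from -0.18 to 0.13 with each array left out. *UGDH* had 0.087 in place of -0.38 by Tukey biweight averages, which give little weight to the lowest calcitriol and the highest vehicle array. Centring on the exogenous controls moved the median of all features to 0.34 and the calls over all features from 2160 lower and 1980 higher to 235 lower and 19051 higher. The deviations of same-numbered pools correlated weakly, at 0.019, 0.034 and 0.037. Those of differently numbered pools correlated at -0.042 to 0.0059, all lower. Whether pool numbers pair the arrays was not tested. With the replicate block, *HAS2* kept its log2 fold change of -1.11 with a standard error of 0.31, *HAS3* kept -0.56 but its unadjusted p passed 0.05, and the genes called lower were 1, as without it. Among the other lists, centring on the exogenous controls left 2 hyaluronan-binding matrix genes and 1 gene each for breakdown, receptors and other glycosaminoglycan chains higher, where 0 had been. Dropping vehicle replicate 2 or calcitriol replicate 2 left 1 matrix gene lower, and dropping vehicle replicate 1 left 1 gene of the *CD44* partners lower, again where 0 had been. Dropping vehicle replicate 2, calcitriol replicate 1 or calcitriol replicate 3 left 1 of the other glycosaminoglycan genes lower in place of 2.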

Other observations

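Genes that make sulfated glycosaminoglycans, which draw on the same UDP-glucuronic acid as hyaluronan, were measured as a further list: 23 of 25 genes had a feature and 15 were above the negative control level. By the fold and p used above, 2 of the 23 were lower and 0 were higher, where 2.87% of coding genes and 1.56% of all features were lower, the median log2 fold change was -0.12, and the lowest adjusted p from limma was 0.915. The 2 were *EXT1*, a polymerase gene of heparan sulfate, with 13.88, 13.64 and 13.40 in vehicle and 12.99, 12.96 and 13.03 in calcitriol (-0.65, standard error 0.18), and *HS6ST1*, a heparan sulfate sulfotransferase gene, with 7.12, 7.94 and 7.10 in vehicle and 6.65, 6.79 and 6.75 in calcitriol (-0.66, standard error 0.25). In both genes every calcitriol array lay below every vehicle array, as in 11.2% of coding genes and 5.55% of all features. *UXS1*, whose product turns UDP-glucuronic acid into UDP-xylose, had -0.50 (standard error 0.17), also with the groups apart, and *NDST1*, which starts heparan sulfate modification, had -0.41 (standard error 0.20) with overlapping groups. Leaving out each array in turn left 1 to 3 of these genes lower at that fold and p, where 2144 to 3147 of all 138745 features were. After centring on the exogenous controls 0 were lower, where 235 of all features were.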
